A study of Mus musculus with 9 samples.

Results

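Lysosomal genes were followed in RNA from mouse lymph nodes. The set held 51 genes, chosen by name, for the hydrolases, the activator and membrane proteins, the proton pump and the transcription factors of the lysosome. Of these, 50 had an entry among the 37801 used, and all 50 passed the filter on low values that left 16587 genes. The sulfatase gene Galns was not analysed here. The members found were 9 proteases, 14 glycosidases and sulfatases, 7 lipid enzymes and activators, 3 genes for phosphatases and progranulin, 8 membrane proteins, 7 pump genes and 2 transcription factors.

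There were 3 groups with 3 libraries each. Wild-type (WT) libraries came from FVB/NJ mice with wild-type NRAS and MHCII. Tyr-NrasQ61K libraries came from FVB/NJ crosses labelled NRAS61K, wtMHCII and Cre-negative, and in this model the tyrosinase promoter drives the mutant NRAS in melanocytes. The last group, Tyr-NrasQ61K MHCII-KO, was of the same cross and labelled NRAS61K, MHCII-KO and Cre-positive. The labels name neither the MHCII gene deleted nor the promoter of the Cre, and the sources used here leave out age, sex and pooling of nodes. The source is given in the labels as nevus melanocytes, where the study describes lymph nodes. The melanocyte gene Dct was at 0.0509, 0 and 0.0319 FPKM in the WT libraries, and 8 melanocyte markers summed to 1.09 to 3.04 FPKM there, against 74.5, 57.4 and 58.5 FPKM for the B cell gene Cd79a alone. MHC class II transcripts stayed abundant in the libraries labelled MHCII-KO. H2-Ab1 was at 271, 108 and 165 FPKM there, against 149, 276 and 207 in Tyr-NrasQ61K and 183, 101 and 170 in WT. H2-Aa was at 634, 362 and 499 FPKM in MHCII-KO, 587, 276 and 802 in Tyr-NrasQ61K and 1091, 667 and 932 in WT. Every MHCII-KO library thus lay below every WT library for H2-Aa, while H2-Eb1 overlapped between the groups. A complete loss of these transcripts was not visible in the libraries. The entry for Nras was at 14.3, 10.3 and 14.7 FPKM in WT, 10.7, 5.55 and 14.5 in Tyr-NrasQ61K and 10.8, 7.48 and 11.1 in MHCII-KO, with overlap, and it is not known whether reads of the transgene count toward it. Nothing states that libraries of a group came from separate mice, so the p-values rest on a spread that may be technical.

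Lysosomes are acidic vesicles in which proteins, glycans, lipids and nucleic acids brought in by endocytosis, phagocytosis or autophagy are degraded. The acid is made by the V-ATPase, a rotary proton pump whose V1 sector hydrolyses ATP and whose V0 sector carries protons across the membrane. Many of the genes share a regulatory program, since TFEB and TFE3 bind an E-box in lysosomal promoters. In lymph nodes, macrophages and dendritic cells are rich in lysosomes, where cathepsins cut antigens and the invariant chain of MHC class II, and melanosomes of pigment cells are related organelles.

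Values are FPKM, fragments scaled to transcript length and to the mapped fragments of the library. Differences are limma estimates in log2(FPKM + 1), given ± their SE with n = 3 libraries per group. This scale understates changes of low genes, and a gene is called at a limma Benjamini-Hochberg adjusted p of at most 0.05 over all genes tested. The reads behind a value are unknown. On the leading principal component, which carried 32.1% of the variance, 2 libraries lay far from the other 7, replicate 2 of Tyr-NrasQ61K and replicate 2 of MHCII-KO. They were also the shallowest by a rough estimate, at 0.753 and 0.871 of the depth of WT replicate 1. The commonest ratio behind this estimate was shared by only 16 of 738 and 18 of 869 genes. These are the 2 libraries meant below as those that stood apart. On the next component, with 14.6% of the variance, replicate 3 of Tyr-NrasQ61K lay alone at -99.95, where the other 8 lay between -12.9 and 35. In the 2 libraries that stood apart, genes with GC-rich transcripts read higher. Spearman rho between GC content and the departure of a library from the gene's mean was 0.498 and 0.444 there, over 11902 genes. It was 0.232 in MHCII-KO replicate 3, -0.229 in MHCII-KO replicate 1, and -0.277 and -0.0932 in Tyr-NrasQ61K replicates 1 and 3. In WT it was -0.262 to -0.46.

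A small number of lysosomal genes was called, and most were not. In Tyr-NrasQ61K against WT 1 of 50 members was called, Mfsd12, where 0.235% of all genes tested were called. In MHCII-KO against WT the same gene was the 1 member called, against 0.145% of all genes. With both NrasQ61K groups set against WT, Mfsd12 and Atp6v0c were called higher and no member lower, against 0.398% of all genes. Across the members the differences were split, 31 above and 19 below 0 in Tyr-NrasQ61K and 28 above and 22 below 0 in MHCII-KO. The median difference of the members was 0.20 in Tyr-NrasQ61K, 0.10 in MHCII-KO and 0.14 with both groups together, where the medians of all genes tested were -0.12, -0.22 and -0.16. Without WT replicate 2, the members' medians were -0.04, -0.11 and -0.06, beside -0.22, -0.32 and -0.27 for all genes. Tyr-NrasQ61K replicate 3 was the highest of the 9 libraries for 17 of 50 members, and without it the members' median was 0.04 in Tyr-NrasQ61K and 0.05 with both groups together, beside -0.27 and -0.24 for all genes. The comparisons against WT use the same 3 WT libraries and are not independent. In whole nodes, fewer cells of a type and less RNA per cell cannot be told apart.

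**Figure D1:**
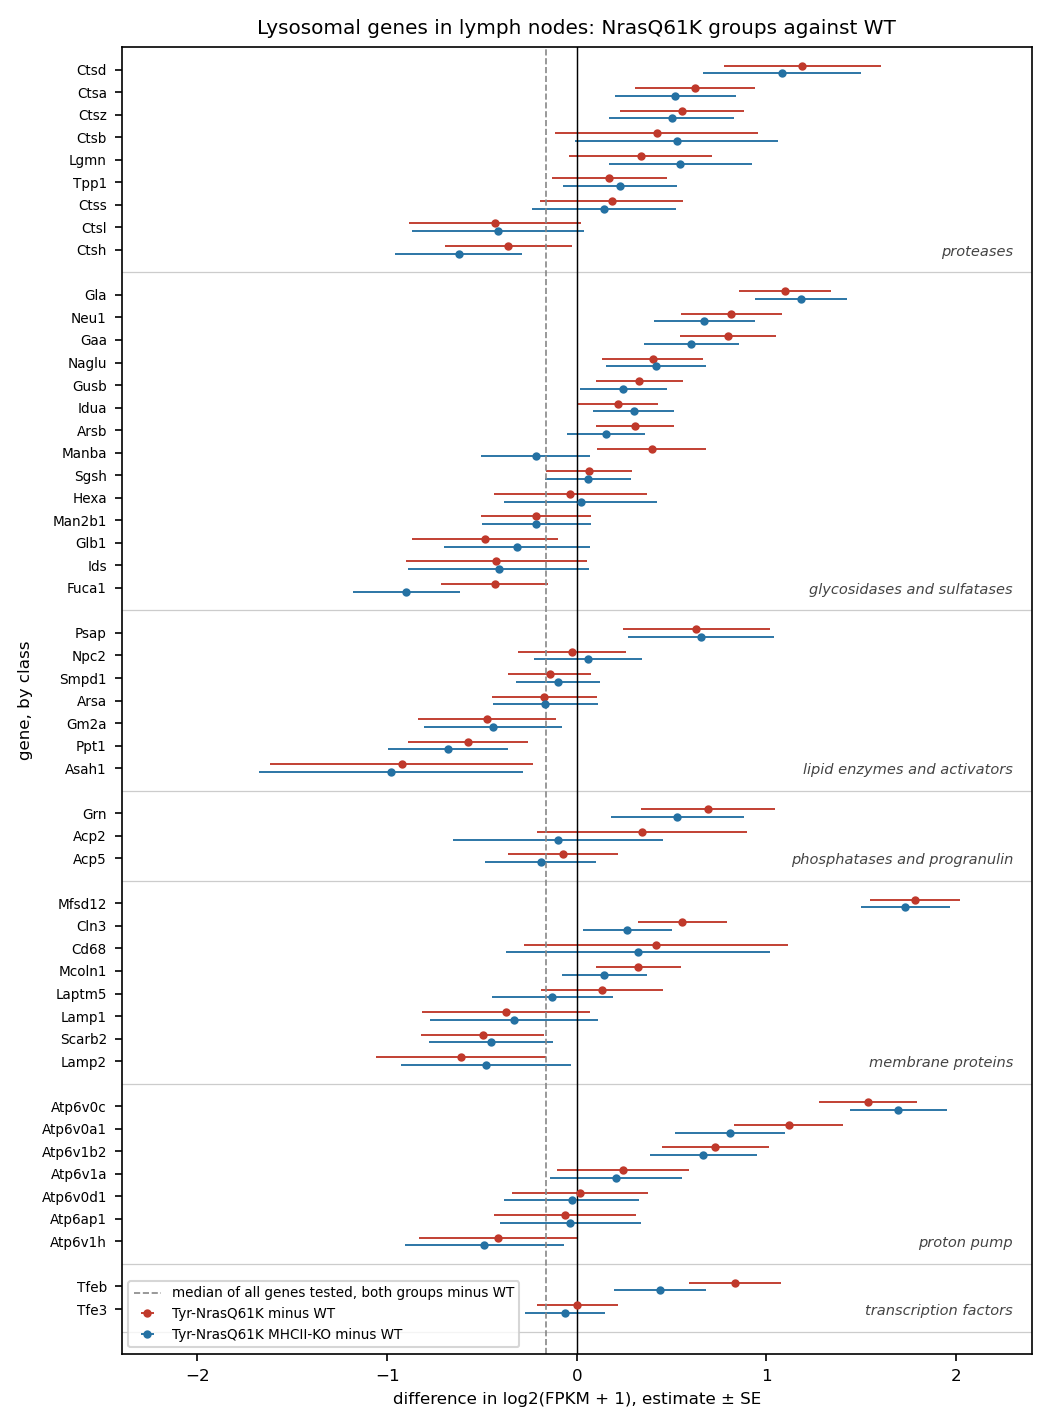
Differences in log2(FPKM + 1) from WT for 50 lysosomal genes, as limma estimates with their SE, with Tyr-NrasQ61K drawn in red and its MHCII-KO counterpart in blue, grouped by class and ordered within it. Mfsd12 and Atp6v0c lie farthest to the right at 1.76 and 1.62 with both groups together, while most other members lie within 1 of 0, and the dashed line marks the median of all genes tested at -0.16.

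By libraries, 11 of 50 members read higher in all 6 NrasQ61K libraries than in all 3 WT libraries, which 4.52% of all genes tested did. None read lower in all 6, which 8.44% of all genes did. The 11 were Ctsa, Ctsd, Gaa, Gla, Neu1, Psap, Mfsd12, Atp6v0a1, Atp6v0c, Atp6v1b2 and Tfeb, so that each class but phosphatases and progranulin had at least 1. WT replicate 2 was the lowest of the 9 libraries for 25 members and the lowest of its group for 46 of 50. Its 15 macrophage markers summed to 753 FPKM, against 1693 and 1592 in WT replicates 1 and 3. The part of this library's composition in the members' levels was not tested.

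Of the 2 transcription factors, neither was called, and their values ran differently. Tfeb, a master regulator of lysosomal genes, was at 15.8, 14.6 and 12.3 FPKM in WT, at 19.4, 32.3 and 28.02 in Tyr-NrasQ61K and at 18.03, 22.9 and 18.2 in MHCII-KO. Every NrasQ61K library lay above every WT library, by the least in Tyr-NrasQ61K replicate 1 and MHCII-KO replicates 1 and 3. The difference was 0.83 ± 0.24 in Tyr-NrasQ61K, with an unadjusted limma p of 0.00836 and an adjusted p of 0.244, and was not called. Tfe3, its relative, was at 7.89, 5.54 and 6.25 FPKM in WT, at 5.599, 5.64 and 8.68 in Tyr-NrasQ61K and at 5.73, 6.06 and 6.81 in MHCII-KO, and the groups overlapped throughout. Transcripts of Tfeb are 63.2% GC, the highest share among the members, and its highest value was in replicate 2 of Tyr-NrasQ61K, one of the 2 libraries that stood apart. Among 16 other tested genes of the MiT/TFE family and the autophagy regulators, none was called in any comparison with WT. The 3 of these that read higher at an unadjusted limma p under 0.05 in Tyr-NrasQ61K were Rraga, a GTPase that brings mTORC1 to the lysosome, at 3.38, 5.53 and 4.76 FPKM in WT, 8.39, 9.13 and 11.6 in Tyr-NrasQ61K and 9.12, 9.42 and 9.55 in MHCII-KO, and Fnip2 and Rptor, partners in the sensing of nutrients at the lysosome. Of 16587 genes tested, 1127 read higher at such a p in Tyr-NrasQ61K. Rraga and Fnip2 did not overlap between WT and the NrasQ61K groups, and the adjusted limma p of Rraga was 0.0819 with both groups together. Fnip2 was at 7.77, 4.02 and 8.06 FPKM in WT, 14.3, 9.79 and 16.2 in Tyr-NrasQ61K and 11.4, 10.6 and 16.3 in MHCII-KO. Rptor was at 10.6, 12.6 and 8.83 FPKM in WT, 15.4, 39.9 and 16.1 in Tyr-NrasQ61K and 12.6, 25.04 and 24.7 in MHCII-KO, and overlapped with WT in MHCII-KO.

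The E-box bound by TFEB and TFE3 was looked up in the members' promoters, because it is the feature by which these genes are known as one program. RefSeq promoter windows on GRCm38.p6, from 250 bases before to 50 bases after a start site, were at hand for 45 of the 51 members. The 6 letters CACGTG, which read alike on both strands, occurred in 15 of 45 members, or 33.3%, and in 8.09% of 27025 genes with a window. The longer TCACGTGA, which contains CACGTG and is the core of the element known as CLEAR, occurred in 7 of 45, or 15.6%, and in 1.12% of all genes. These are counts of letters, and occupancy was not measured. One site of each of the 7 genes is shown, with 10 bases on either side and the element in capitals, to let the flanks be compared.
Ctsa, chr2:164833750-164833777, plus strand: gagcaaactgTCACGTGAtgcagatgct
Ctsd, chr7:142387909-142387936, minus strand: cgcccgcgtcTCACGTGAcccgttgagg
Gla, chrX:134601216-134601243, minus strand: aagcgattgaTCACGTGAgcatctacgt
Cln3, chr7:126583341-126583368, minus strand: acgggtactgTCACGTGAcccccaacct
Mcoln1, chr8:3500463-3500490, plus strand: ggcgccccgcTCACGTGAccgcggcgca
Atp6v0d1, chr8:105566051-105566078, minus strand: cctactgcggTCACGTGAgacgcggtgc
Atp6v1a, chr16:44139374-44139401, minus strand: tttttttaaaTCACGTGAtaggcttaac
Members with and without the element overlapped in their differences. With both NrasQ61K groups against WT, the 7 genes with it ranged from -0.01 to 1.14 with a median of 0.41, and 3 of them did not overlap with WT. The 38 members whose windows lacked it ranged from -0.67 to 1.76 with a median of 0.08, and 7 of these did not overlap with WT. Neither Mfsd12 nor Atp6v0c, the 2 genes called, had CACGTG in a window. The 250 bases before the start are shown for Gla and Ctsd, which hold 2 copies of CACGTG each (in capitals), and for Mfsd12, which holds none.
Gla, chrX:134601006-134601255, minus strand: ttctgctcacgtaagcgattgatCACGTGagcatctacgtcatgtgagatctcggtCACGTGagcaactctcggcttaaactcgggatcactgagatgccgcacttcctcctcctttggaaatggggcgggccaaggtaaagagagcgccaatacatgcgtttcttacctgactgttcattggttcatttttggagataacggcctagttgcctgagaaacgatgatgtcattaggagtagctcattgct
Ctsd, chr7:142387828-142388077, minus strand: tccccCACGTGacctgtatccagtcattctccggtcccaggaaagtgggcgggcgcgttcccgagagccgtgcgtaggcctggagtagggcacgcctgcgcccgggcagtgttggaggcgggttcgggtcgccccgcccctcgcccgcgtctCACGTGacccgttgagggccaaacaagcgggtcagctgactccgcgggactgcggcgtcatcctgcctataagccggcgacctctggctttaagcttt
Mfsd12, chr10:81357241-81357490, plus strand: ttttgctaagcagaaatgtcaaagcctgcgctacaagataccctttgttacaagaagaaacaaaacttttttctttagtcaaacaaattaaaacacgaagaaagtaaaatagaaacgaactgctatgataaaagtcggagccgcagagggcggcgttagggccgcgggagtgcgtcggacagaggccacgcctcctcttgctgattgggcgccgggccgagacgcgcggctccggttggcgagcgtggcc

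Mfsd12 was the member with the largest difference. It encodes a transporter that brings cysteine into lysosomes and melanosomes and is known for its part in pigmentation. The gene, ENSMUSG00000034854, lies at chr10:81357491-81366225 on the plus strand of GRCm38. Its FPKM were 3.91, 2.22 and 3.86 in WT, 13.3, 14.4 and 13.3 in Tyr-NrasQ61K and 10.2, 16.2 and 13.7 in MHCII-KO. All 6 NrasQ61K libraries lay far above the WT libraries, and the lowest of the 6, MHCII-KO replicate 1, was still at 10.2 FPKM. The difference was 1.79 ± 0.24 in Tyr-NrasQ61K (limma adjusted p = 0.0364), 1.73 ± 0.24 in MHCII-KO (adjusted p = 0.0451) and 1.76 ± 0.21 with both together (adjusted p = 0.0132), the last being 3.39-fold on the FPKM + 1 scale. With both groups together the call held in 15 of 18 alternative settings, with adjusted p up to 0.0575, and was lost without WT replicate 1 (0.0508), WT replicate 3 (0.0575) or MHCII-KO replicate 3 (0.0505). In Tyr-NrasQ61K alone it held in 8 of 19 and in MHCII-KO alone in 6 of 19.

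Over part of its exons, reads of Mfsd12 cannot be told from those of a neighbour if the libraries were unstranded, which is not known. Exons of Mfsd12 overlap those of 4930404N11Rik, a gene on the other strand. Of the 3971 exon bases of Mfsd12, 1179 (29.7%) are also exon bases of 4930404N11Rik. These shared bases make up 67.3% of the 1751 exon bases of 4930404N11Rik. No stranded library kit is named in the sources used here. 4930404N11Rik was at 5.35, 2.55 and 3.97 FPKM in WT, 14.7, 17.9 and 17.3 in Tyr-NrasQ61K and 11.8, 18.4 and 17.6 in MHCII-KO. It was called as well with both groups together, at 1.83 ± 0.23 and a limma adjusted p of 0.0184. Melanocyte markers also summed higher than in WT, the 8 of them coming to 10.5 to 13.5 FPKM in Tyr-NrasQ61K libraries, with 3.72 to 9.05 for MHCII-KO. These sums did not overlap between the 2 NrasQ61K groups, whereas the values of Mfsd12 did, and the part of melanocytes in the level of Mfsd12 was not tested.

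The other 7 membrane proteins gave no call, and their directions were split. Cln3, mutated in juvenile Batten disease, was at 16.2, 11.99 and 14.1 FPKM in WT, 15.6, 25.3 and 23.6 in Tyr-NrasQ61K and 17.9, 15.6 and 17.6 in MHCII-KO. Its Tyr-NrasQ61K and WT values overlapped by replicate 1 alone, and the difference of 0.56 ± 0.23 had a limma adjusted p of 0.323. Scarb2, the receptor that carries glucocerebrosidase to the lysosome, was at 33.5, 18.8 and 37.1 FPKM in WT, 22.97, 14.8 and 23.3 in Tyr-NrasQ61K and 21.6, 16.03 and 25.3 in MHCII-KO. WT replicates 1 and 3 lay above every NrasQ61K library and WT replicate 2 among them, and the difference in Tyr-NrasQ61K was -0.50 ± 0.33 (adjusted p = 0.428). Laptm5, a lysosomal protein of blood cells and the most abundant of the class, was at 144, 88.8 and 118 FPKM in WT, 105, 107 and 179 in Tyr-NrasQ61K and 105, 94.6 and 116 in MHCII-KO, with full overlap. Lamp1 and Lamp2, the main proteins of the lysosomal membrane, had WT means of 100.9 and 37.3 FPKM, Tyr-NrasQ61K means of 78.5 and 25.7 and MHCII-KO means of 77.0 and 26.6, and the Lamp2 difference was -0.54 ± 0.39 with both groups together (adjusted p = 0.396). Cd68, a macrophage protein, was at 28.7, 13.4 and 34.2 FPKM in WT, 58.4, 9.77 and 55.0 in Tyr-NrasQ61K and 37.3, 17.4 and 40.5 in MHCII-KO. Mcoln1, a calcium channel, had means of 13.2, 17 and 14.8 FPKM in the 3 groups.

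**Figure D2:**
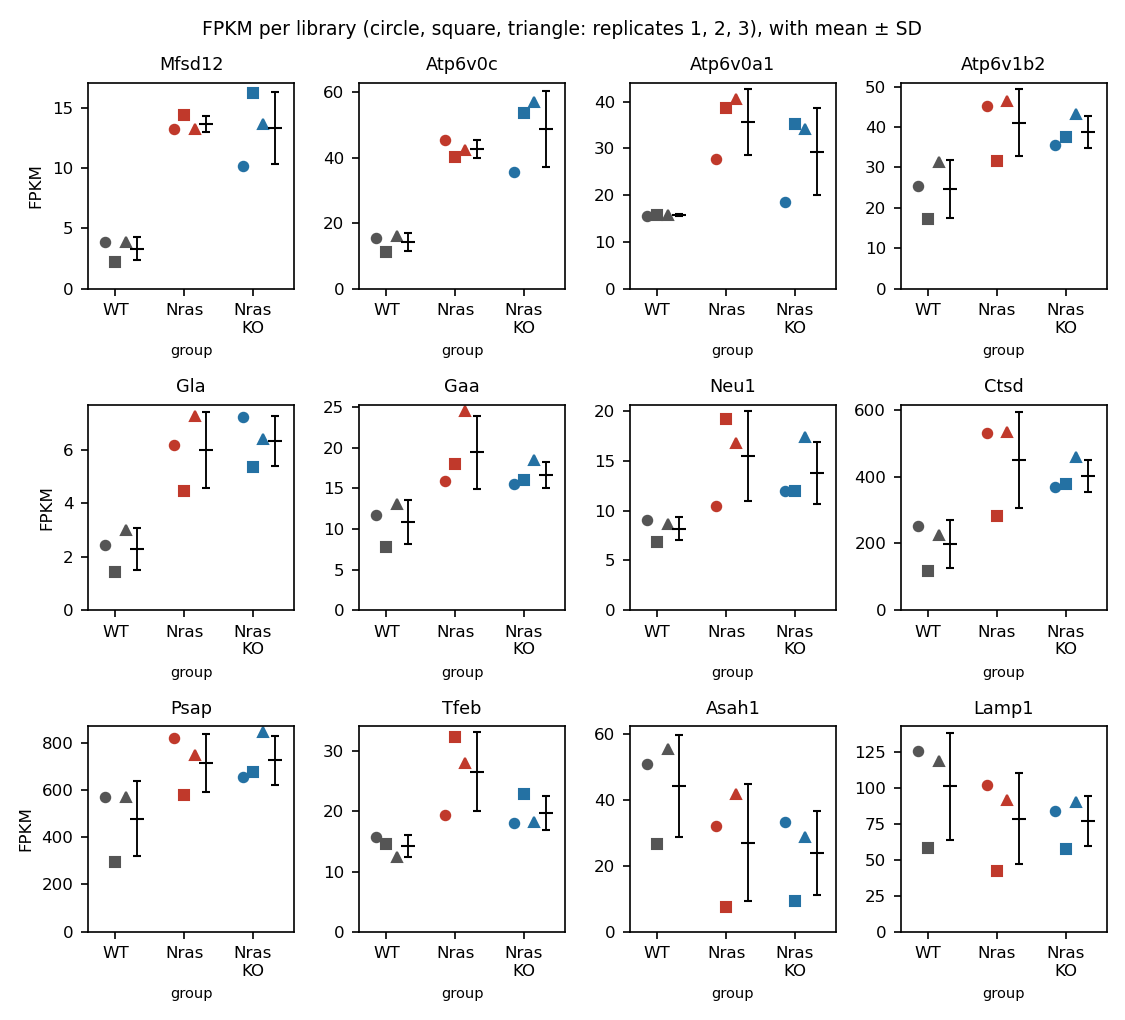
FPKM of 12 lysosomal genes in each of 9 libraries, by group (grey, WT; red, Tyr-NrasQ61K, written Nras; blue, the MHCII-KO group, written Nras KO), with the mean and SD of each group in black. Mfsd12 and Atp6v0c show a wide gap between WT and the other groups, Gla, Ctsd and Atp6v0a1 a narrower one, and Lamp1 and Asah1 overlap, with replicate 2 the lowest in each group.

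The proton pump was uneven. Atp6v0c encodes the small proteolipid that forms the rotating ring of the V0 sector. The gene, ENSMUSG00000024121, lies at chr17:24163866-24169702 on the minus strand. It was at 15.6, 11.2 and 15.96 FPKM in WT, 45.6, 40.2 and 42.5 in Tyr-NrasQ61K and 35.6, 53.7 and 57.2 in MHCII-KO. All WT libraries lay far below all NrasQ61K libraries, and the 2 NrasQ61K groups overlapped. The difference was 1.62 ± 0.22 with both groups together, 3.06-fold on the FPKM + 1 scale, at a limma adjusted p of 0.0282. In Tyr-NrasQ61K alone it was 1.54 ± 0.26 (adjusted p = 0.07195) and in MHCII-KO alone 1.70 ± 0.26 (adjusted p = 0.0686), and neither was called. With both groups together the call held in 10 of 18 alternative settings, with adjusted p up to 0.136. It was lost when any 1 of 7 libraries was left out, with adjusted p of 0.0546 to 0.136, and held without Tyr-NrasQ61K replicate 2 or MHCII-KO replicate 1.

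Atp6v0a1, one of the forms of the a subunit through which protons pass, was at 15.5, 15.9 and 15.8 FPKM in WT, 27.7, 38.7 and 40.6 in Tyr-NrasQ61K and 18.6, 35.2 and 34.2 in MHCII-KO. The WT libraries were close to each other and below all NrasQ61K libraries, of which MHCII-KO replicate 1 was the nearest. The difference in Tyr-NrasQ61K was 1.12 ± 0.29 (limma adjusted p = 0.213). Atp6v1b2, which carries part of the ATP site of the V1 sector, was at 25.4, 17.3 and 31.4 FPKM in WT, 45.2, 31.6 and 46.5 in Tyr-NrasQ61K and 35.7, 37.6 and 43.3 in MHCII-KO. Tyr-NrasQ61K replicate 2 was only just above WT replicate 3, and the difference of 0.73 ± 0.28 was not called (adjusted p = 0.316). The other 4 pump members overlapped with WT. Atp6v1a, the catalytic subunit, had means of 15.9, 19.2 and 17.9 FPKM in WT, Tyr-NrasQ61K and MHCII-KO, Atp6v0d1 means of 19.3, 20.1 and 18.7, Atp6ap1 means of 32.5, 32.3 and 31.1, and Atp6v1h means of 16.3, 13.1 and 11.5. Atp6v1h had the lowest difference of the class, -0.45 ± 0.36 with both groups together, and the lowest GC content of all members, 37.6%.

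Set against the other pump genes of the same library, Atp6v0c made up 10.3%, 11% and 9.82% of the summed FPKM of the 7 pump members in WT. In Tyr-NrasQ61K it made up 20.9%, 25.7% and 17.9%, and in MHCII-KO 21%, 28% and 25.1%. This share does not depend on how libraries are scaled. Among 12 further pump genes that passed the filter, 1 was called with both groups together, against 0.398% of all genes tested. That was Atp6v0d2, a form of the d subunit known from osteoclasts and macrophages, at 1.62, 0.327 and 1.16 FPKM in WT, 31.2, 6.38 and 30.1 in Tyr-NrasQ61K and 16.1, 10.99 and 18.2 in MHCII-KO, with a difference of 3.16 ± 0.49 and a limma adjusted p of 0.04203. Tcirg1, the a subunit of osteoclasts and immune cells, was at 28.7, 19.8 and 23.7 FPKM in WT, 50.9, 93.4 and 58.5 in Tyr-NrasQ61K and 41.04, 74.1 and 57.2 in MHCII-KO, without overlap and without a call (adjusted p = 0.112). Atp6v0a2, another a subunit, was at 11.6, 7.11 and 10.8 FPKM in WT, 7.498, 5.95 and 7.76 in Tyr-NrasQ61K and 7.21, 6.43 and 8.69 in MHCII-KO. The 12 further genes had a median difference of -0.15 with both groups together, near the -0.16 of all genes.

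**Figure D3:**
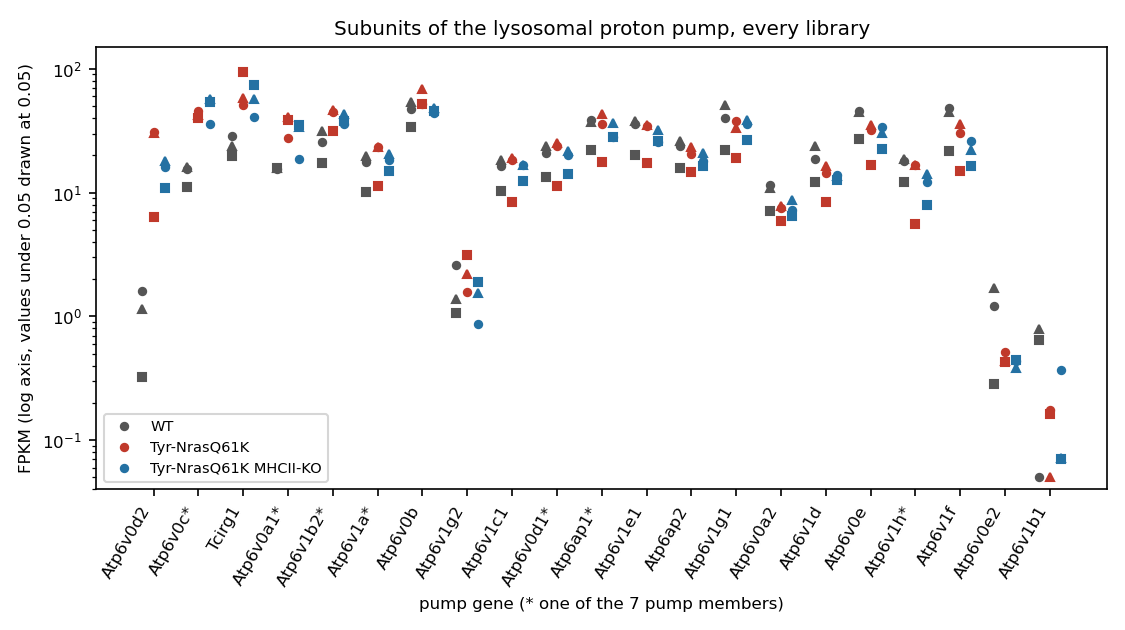
FPKM on a log axis of 21 genes of the proton pump in 9 libraries, ordered by the difference between the NrasQ61K groups and WT, with circles, squares and triangles for replicates 1, 2 and 3. Atp6v0d2, Atp6v0c, Tcirg1, Atp6v0a1 and Atp6v1b2 at the left show NrasQ61K libraries above all WT libraries, and the others overlap or, for the last 2, did not pass the filter.

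Of the 14 glycosidases and sulfatases none was called. Gla, the alpha-galactosidase that is deficient in Fabry disease, came nearest. It was low, at 2.43, 1.43 and 2.99 FPKM in WT, 6.199, 4.48 and 7.28 in Tyr-NrasQ61K and 7.23, 5.35 and 6.41 in MHCII-KO, and the groups did not overlap with WT. The difference was 1.10 ± 0.24 in Tyr-NrasQ61K (limma adjusted p = 0.1604) and 1.14 ± 0.21 with both groups together (adjusted p = 0.0777), and it was called in 6 of 18 alternative settings with both groups together. Gaa, the acid glucosidase that breaks down glycogen, was at 11.7, 7.77 and 13.04 FPKM in WT, 15.9, 18.0 and 24.5 in Tyr-NrasQ61K and 15.5, 16.0 and 18.5 in MHCII-KO. Neu1, the sialidase, was at 9.02, 6.84 and 8.68 FPKM in WT, 10.5, 19.2 and 16.8 in Tyr-NrasQ61K and 11.9, 11.98 and 17.4 in MHCII-KO. Both lay above WT in all 6 libraries, with differences of 0.80 ± 0.25 and 0.81 ± 0.27 in Tyr-NrasQ61K and limma adjusted p of 0.266 and 0.278. Hexa, the alpha chain of beta-hexosaminidase and on average the second most abundant of the class in WT, was at 39.7, 21.1 and 44.1 FPKM in WT, 46.1, 19.1 and 39.1 in Tyr-NrasQ61K and 35.7, 27.02 and 40.3 in MHCII-KO, and its group means differed by less than 1 FPKM. Fuca1, the fucosidase, had the lowest difference of the class, -0.67 ± 0.24 with both groups together (adjusted p = 0.207). Its values were 40.8, 34.4 and 43.9 FPKM in WT, 29.5, 20.2 and 40.8 in Tyr-NrasQ61K and 22.9, 17.9 and 21.7 in MHCII-KO, so that MHCII-KO did not overlap with WT while Tyr-NrasQ61K did. The other 9 genes, Glb1, Gusb, Idua, Ids, Man2b1, Manba, Naglu, Sgsh and Arsb, had WT means of 5.21 to 30.5 FPKM and overlapped with WT once both groups were joined. Of these, Idua read higher in every MHCII-KO than in every WT library, at 6.22, 5.896 and 7.85 against 5.23, 5.83 and 4.56 FPKM. Summed over the class, FPKM lay between 148 and 220 in WT, and the other groups spanned 155 to 249.

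Proteases were the most abundant class, at 40.5% of the members' summed FPKM in WT, 42.7% in Tyr-NrasQ61K and 42.9% in MHCII-KO, and none of the 9 was called. Ctsd, the aspartic protease cathepsin D, was at 253, 118 and 225 FPKM in WT, 530, 283 and 533 in Tyr-NrasQ61K and 370, 378 and 457 in MHCII-KO. WT replicate 1 and Tyr-NrasQ61K replicate 2 were the nearest, and the groups did not overlap. The difference was 1.19 ± 0.42 in Tyr-NrasQ61K (limma adjusted p = 0.304) and 1.14 ± 0.36 with both groups together (adjusted p = 0.192). As a share of the 50 members in the same library, Ctsd made up at most 8.77% in WT, and at least 12.3% in Tyr-NrasQ61K and 13% in MHCII-KO. Ctss, the cathepsin that trims the invariant chain in antigen-presenting cells, had mean shares of 10.4% in WT, 9.06% in Tyr-NrasQ61K and 9.20% in MHCII-KO. Every MHCII-KO library lay below every WT library in this share, and Tyr-NrasQ61K overlapped with WT. Shares of one total are tied to each other, so that where Psap and Ctsd make up more, other classes make up less. Membrane proteins made up 13.2% to 14.7% in WT libraries and no more than 12.3% in any NrasQ61K library, and glycosidases and sulfatases at least 7.39% and no more than 6.97%, although the summed FPKM of both classes overlapped.

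Ctsa, the protective protein of the sialidase, was at 68.7, 38.5 and 78.1 FPKM in WT, 94.7, 79.4 and 102 in Tyr-NrasQ61K and 78.1, 78.6 and 101 in MHCII-KO. The gap to WT was less than 0.1 FPKM at its narrowest, between WT replicate 3 and MHCII-KO replicate 1, and the difference in Tyr-NrasQ61K was 0.62 ± 0.32 (limma adjusted p = 0.351). Ctsz, a carboxypeptidase, was at 100, 54.4 and 105 FPKM in WT, 140, 102 and 129 in Tyr-NrasQ61K and 111, 105 and 140 in MHCII-KO, overlapping by Tyr-NrasQ61K replicate 2, with a difference of 0.55 ± 0.33 (adjusted p = 0.392). The remaining proteases overlapped with both groups joined. Mean FPKM in WT, Tyr-NrasQ61K and MHCII-KO were 119.5, 170.6 and 169.8 for Ctsb, 43.2, 52.5 and 60.2 for Lgmn, which opens antigens for other proteases, and 12.2, 13.9 and 14.3 for Tpp1. They were 117.4, 84.6 and 81.0 for Ctsl and 109.1, 85.6 and 69.3 for Ctsh, whose difference of -0.49 ± 0.29 was the lowest of the class. Ctsh also read lower in every MHCII-KO than in every WT library.

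Among the 7 lipid enzymes and activators, 5 had differences below 0 with both groups together, and none was called. Psap, the precursor of the saposins that present lipids to their hydrolases, was the most abundant member of all, at 569, 294 and 572 FPKM in WT, 820, 580 and 747 in Tyr-NrasQ61K and 656, 677 and 843 in MHCII-KO. Tyr-NrasQ61K replicate 2 was above WT replicate 3 by less than 10 FPKM, and the difference was 0.63 ± 0.39 (limma adjusted p = 0.402). Ppt1, a palmitoyl thioesterase, was at 49.5, 29.4 and 43.8 FPKM in WT, 29.7, 19.3 and 32.6 in Tyr-NrasQ61K and 27.97, 18.03 and 29.5 in MHCII-KO. WT replicate 2 lay among the NrasQ61K libraries and the other WT libraries above all of them, with a difference of -0.57 ± 0.32 in Tyr-NrasQ61K (adjusted p = 0.372). Asah1, acid ceramidase, had the lowest difference of all members, -0.92 ± 0.69 in Tyr-NrasQ61K. It was at 50.95, 26.5 and 55.3 FPKM in WT, 32.04, 7.36 and 41.8 in Tyr-NrasQ61K and 33.4, 9.25 and 28.8 in MHCII-KO, and the values near or below 10 were the 2 libraries that stood apart. Without those 2 libraries its difference was -0.20 in Tyr-NrasQ61K. Gm2a, Npc2, Arsa and Smpd1 had WT means of 28.5, 38.6, 5.80 and 6.45 FPKM and overlapped.

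Grn, Acp2 and Acp5 were not called. Grn encodes progranulin, which is cut into granulins in the lysosome. It was at 74.8, 42.7 and 85.8 FPKM in WT, 86.7, 112 and 122 in Tyr-NrasQ61K and 71.8, 93.4 and 125 in MHCII-KO, above all WT libraries in Tyr-NrasQ61K alone, with a difference of 0.69 ± 0.35 (limma adjusted p = 0.3501). Acp2, an acid phosphatase, was at 12.8, 7.84 and 11.6 FPKM in WT, 13.6, 5.29 and 33.3 in Tyr-NrasQ61K and 9.82, 6.98 and 13.5 in MHCII-KO, so that the Tyr-NrasQ61K mean of 17.4 rested on replicate 3. Acp5, the tartrate-resistant acid phosphatase of osteoclasts and macrophages, was at 34.6, 25.1 and 38.3 FPKM in WT, 35.1, 23.3 and 35.01 in Tyr-NrasQ61K and 32.5, 20.8 and 32.6 in MHCII-KO, with overlap throughout.

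**Figure D4:**
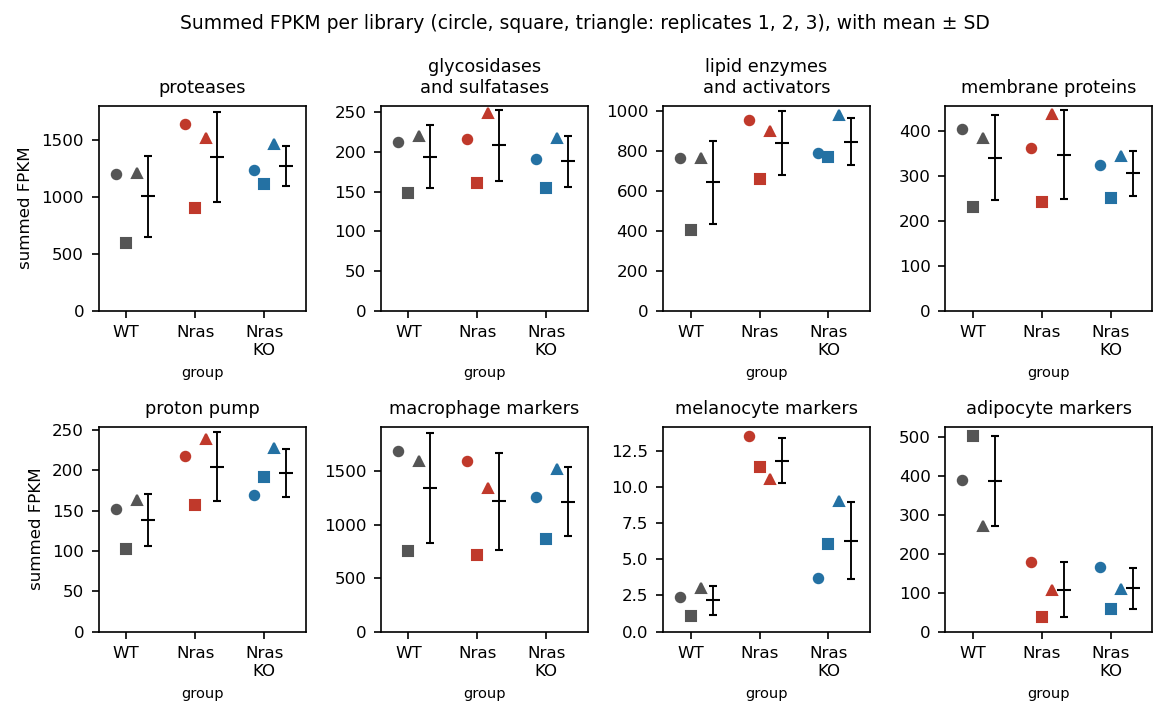
Summed FPKM per library for 5 classes of lysosomal members and for 3 lists of marker genes, by group (Nras, Tyr-NrasQ61K; Nras KO, Tyr-NrasQ61K MHCII-KO), with the mean and SD in black. The lysosomal classes and the macrophage markers overlap between groups, with replicate 2 low in most panels, while melanocyte markers lie above WT at 3.72 to 13.5 FPKM and adipocyte markers below WT at 37.7 to 179 FPKM.

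The classes were read against the cells a node can hold. Summed over the 15 macrophage markers, FPKM spanned 753 to 1693 in WT, and the ranges elsewhere were 717 to 1597 (Tyr-NrasQ61K) and 872 to 1518 (MHCII-KO). Of 14 macrophage markers tested, none was called in any comparison with WT. With both groups together 9 had differences below 0, 6 of them at an unadjusted limma p under 0.05. The other 5 were above 0, the highest at 2.18, and 1 of them was at such a p. Among all 16587 genes tested, 2513 were lower and 1082 higher at such a p. Lyz2, lysozyme, carried most of the sum, at group means of 851, 937 and 895 FPKM in WT, Tyr-NrasQ61K and MHCII-KO. Marco, a scavenger receptor, was at 130, 51.8 and 142 FPKM in WT, 22.9, 19.6 and 24.2 in Tyr-NrasQ61K and 23.6, 13.9 and 40.03 in MHCII-KO (adjusted p = 0.0918 with both groups together), and Mrc1, the mannose receptor, at 20.4, 10.4 and 32.6 FPKM in WT, 8.94, 2.39 and 7.37 in Tyr-NrasQ61K and 9.01, 4.26 and 8.27 in MHCII-KO (adjusted p = 0.185). Neither gene overlapped with WT. Adgre1, which encodes F4/80, was at 16.1, 7.62 and 16.8 FPKM in WT, 8.84, 3.15 and 7.33 in Tyr-NrasQ61K and 6.42, 5.97 and 10.6 in MHCII-KO, and Csf1r, the receptor for the macrophage growth factor, at 63.6, 33.3 and 66.2 FPKM in WT, 31.7, 23.2 and 28.95 in Tyr-NrasQ61K and 26.7, 21.8 and 41.1 in MHCII-KO. For both genes every NrasQ61K library lay below WT replicates 1 and 3. The 8 dendritic cell markers summed to 77.7 to 128 FPKM in WT libraries, against 43.9 to 83.9 for Tyr-NrasQ61K and 48.1 to 70.1 for MHCII-KO, and none was called. With both groups together, 7 of the 8 had differences below 0, and their median was -0.69. There were 5 lower and 0 higher at an unadjusted limma p under 0.05, beside the 2513 and 1082 of all genes. Mean Flt3 was 9.85 ± 1.71, 5.13 ± 1.04 and 4.64 ± 0.576 FPKM (SD) in WT, Tyr-NrasQ61K and MHCII-KO, and mean Zbtb46 7.52 ± 1.39, 6.58 ± 0.557 and 5.66 ± 0.679 FPKM (SD). The B cell gene Cd79a was at 63.5 ± 9.54, 58.5 ± 17.6 and 60.5 ± 9.03 FPKM (SD) in the same order. The 9 T cell markers had summed means of 266.8, 261.4 and 229.1 FPKM and none was called. Of these 9, 7 had differences below 0 with both groups together, and the median of the 9 was -0.54. At an unadjusted limma p under 0.05, 4 were lower and 1 higher, beside the 2513 and 1082 of all genes. The defining markers were both above 0, with Cd3e at 12.2 ± 2.29, 15.4 ± 5.53 and 15.6 ± 4.78 FPKM (SD) and Cd4 at 49.7 ± 16.7, 113 ± 60.2 and 86.8 ± 21.1 FPKM (SD).

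Summed melanocyte and fat cell markers did not overlap with WT. Dct was at 5.81, 4.16 and 2.77 FPKM in Tyr-NrasQ61K and 0.847, 2.098 and 3.25 in MHCII-KO and was called in Tyr-NrasQ61K (limma adjusted p = 0.0431). Tyr overlapped with WT and was at 1.59, 0.595 and 2.04 FPKM in WT, 1.41, 1.66 and 1.56 in Tyr-NrasQ61K and 0.9699, 1.26 and 1.27 in MHCII-KO. The 7 adipocyte markers summed to 270 to 503 FPKM in WT libraries, against 37.7 to 179 for Tyr-NrasQ61K and 58.7 to 165 for MHCII-KO. With both groups together 3 of the 7 were called lower, which 32 of 16587 genes tested were. Adipoq, a hormone of fat cells, was at 31.6, 34.97 and 17.4 FPKM in WT, 6.18, 1.77 and 4.61 in Tyr-NrasQ61K and 9.63, 2.47 and 3.08 in MHCII-KO. Plin1, a coat protein of lipid droplets, was at 9.42, 16.2 and 9.27 FPKM in WT, 3.74, 1.301 and 1.76 in Tyr-NrasQ61K and 3.27, 1.34 and 2.47 in MHCII-KO. Plin1 fell with both groups together (adjusted p = 0.0445). The 7 neutrophil markers summed to 22.2 to 110 FPKM in WT libraries, against 7.8 to 161 for Tyr-NrasQ61K and 18.3 to 37.2 for MHCII-KO, and overlapped. Mean S100a8 was 27.8 ± 18.7, 26.2 ± 33.9 and 7.92 ± 2.58 FPKM (SD) in WT, Tyr-NrasQ61K and MHCII-KO, and mean S100a9 30.2 ± 24.4, 29.2 ± 38.4 and 13.6 ± 6.99 FPKM (SD). The part of these cells in the members' levels was not tested.

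Other lysosomal genes held differences larger than that of Mfsd12. Of 24 further hydrolases and cofactors 1 was called with both groups together, and that was Pld3, a lysosomal exonuclease. It was at 23.3, 12.8 and 21.8 FPKM in WT, 80.2, 138 and 140 in Tyr-NrasQ61K and 59.4, 154 and 106 in MHCII-KO, a difference of 2.46 ± 0.37 and an adjusted p of 0.0374. Ctsk, the collagen-cutting cathepsin of osteoclasts, was at 3.79, 1.27 and 3.24 FPKM in WT, 12.4, 5.05 and 10.6 in Tyr-NrasQ61K and 7.12, 7.24 and 7.58 in MHCII-KO, and was not called (adjusted p = 0.131). Pla2g15, a phospholipase, was at 7.69, 5.98 and 8.97 FPKM in WT, 13.1, 11.96 and 13.1 in Tyr-NrasQ61K and 11.4, 15.2 and 17.03 in MHCII-KO, and was not called either (adjusted p = 0.135). Neither gene overlapped with WT. Of 23 further membrane and sorting genes 1 was called, Gpnmb, a glycoprotein of melanosomes and of lipid-laden or phagocytic macrophages. It was at 4.23, 1.57 and 3.56 FPKM in WT, 204, 96.4 and 151 in Tyr-NrasQ61K and 109, 148 and 161 in MHCII-KO, at 5.20 ± 0.38 and a limma adjusted p of 0.00122 in Tyr-NrasQ61K. Clcn7, the chloride and proton exchanger that works with the pump, was at 8.67, 7.64 and 8.704 FPKM in WT, 16.4, 19.6 and 14.99 in Tyr-NrasQ61K and 13.9, 17.1 and 14.9 in MHCII-KO. Slc11a1, a metal transporter of phagosomes, was at 15.5, 7.95 and 18.7 FPKM in WT, 34.6, 37.3 and 40.2 in Tyr-NrasQ61K and 25.01, 33.2 and 36.3 in MHCII-KO. Neither was called with both groups together (adjusted p = 0.0775 and 0.105), and neither overlapped with WT. Over the 75 tested genes of the 4 lists, 3 were called with both groups together, all higher, against 0.398% of all genes tested. Of the 75, 36 had differences above 0 and 39 below. At an unadjusted limma p under 0.05, 13 were higher and 7 lower, beside 1082 and 2513 of all genes tested. The median difference of the 75 was -0.02, where the members' was 0.14.

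MHCII-KO against Tyr-NrasQ61K gave no called member in limma, against 0.0482% of all genes tested, and 0 of 50 members had an unadjusted p under 0.05, which 1.52% of all genes had. The differences of the members ran from -0.61 to 0.21 with a median of -0.05, where all genes had -0.08. The lowest belonged to Manba, beta-mannosidase, which was at 7.64, 9.28 and 16.2 FPKM in Tyr-NrasQ61K and 6.48, 5.66 and 7.61 in MHCII-KO. These groups were barely free of overlap, and replicate 3 of Tyr-NrasQ61K lay well above the rest. The unadjusted limma p was 0.0647 and the adjusted p 0.9999. No other member was free of overlap between these 2 groups.

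**Figure D5:**
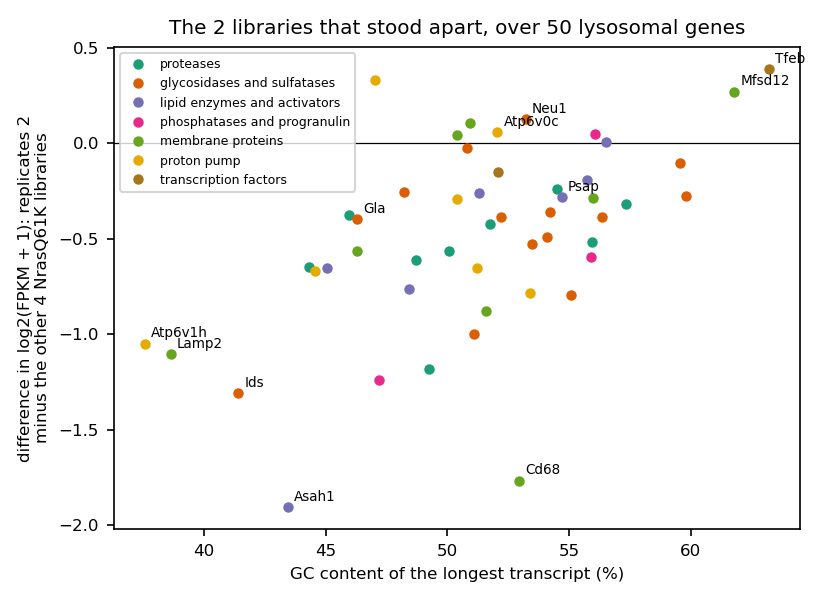
Difference in log2(FPKM + 1) between the 2 libraries that stood apart (replicate 2 of Tyr-NrasQ61K and of MHCII-KO) and the mean of the other 4 NrasQ61K libraries, against the GC content of the longest transcript, for 50 members coloured by class. Members with AT-rich transcripts such as Atp6v1h (37.6% GC) and Lamp2 (38.7% GC) lie near -1 and Mfsd12 (61.8% GC) and Tfeb (63.2% GC) above 0, with a Pearson r of 0.533 over the 50 genes.

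GC content moved with the members' values in those 2 libraries. Over the 50 members, which share the same libraries, the departure of the 2 libraries from the other 4 NrasQ61K libraries had a Pearson r of 0.533 and a Spearman rho of 0.498 with GC content, given as a description. After the trends with GC content and with length were removed over 11902 protein-coding genes, an alternative chosen after seeing the data, 8 members were called with both groups together and all were higher. They were Mfsd12, Atp6v0c, Gla, Ctsd, Neu1, Atp6v0a1, Atp6v1b2 and Ctsz, of 516 genes called. Under it the difference of Mfsd12 was 1.48 and that of Gla 1.44, against 1.76 and 1.14 without it. Without the 2 libraries that stood apart, Mfsd12 alone was called, at 1.67.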

How the data were processed

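RNA of 9 lymph node libraries, 3 per group, was analysed from a table of FPKM values that the authors deposited. Per the labels' processing notes the authors used TopHat, Cufflinks and Cuffdiff with the mm10 build, and the sources used here give no tool versions, strandedness or read counts. The deposited Cuffdiff comparisons hold fold changes and p-values and were not used, and no other column was left aside. Of 37819 entries, 18 with several values per library were left out, and 37801 were used. Genes with at least 1 FPKM in at least 3 libraries (16587) were fitted in limma (version 3.58.1, R 4.3.3) on log2(FPKM + 1), with all 9 libraries sharing one estimate of the spread and no covariate. P-values were adjusted by Benjamini-Hochberg over all genes tested. Contrasts were Tyr-NrasQ61K against WT, MHCII-KO against WT, MHCII-KO against Tyr-NrasQ61K, and the mean of both NrasQ61K groups against WT. FPKM give no counts, so no counting error could be attached, and relative depth was estimated from low values.

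Gene positions and longest transcripts were taken from GENCODE M21 (GRCm38), and promoter windows from RefSeq. The fit was tested on simulated data. The lysosomal genes and all other lists were chosen with earlier results of these data known. Values are given per library for each called member, for the 3 members per class with the smallest p in Tyr-NrasQ61K against WT, for the most abundant member of each class, for both transcription factors, for the called genes and up to 3 with the smallest p of each other lysosomal list, and, per library or as group means, for 2 defining markers per cell type, except that 1 marker and the sum that holds it are not reported here. Fuca1, Cd68, Idua, Manba, Marco, Mrc1, Lyz2 and 4930404N11Rik were added after their values were seen. The alternatives were a pseudocount of 0.1, no filter, quantile normalization, median-ratio scaling, the replicate number as a block, library weights, only the groups compared, protein-coding genes only, removal of trends with GC content and length, and leaving out libraries.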

Additional observations from a re-analysis of the deposited data

How the results depend on the processing

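The members called were 1 in Tyr-NrasQ61K against WT, 1 in MHCII-KO against WT, 0 in MHCII-KO against Tyr-NrasQ61K and 2 with both NrasQ61K groups against WT. In that order of the comparisons against WT, the number was 0, 0 and 2 with no filter on low values, 1, 0 and 2 with a pseudocount of 0.1, 1, 2 and 4 after quantile normalization, 3, 3 and 4 after median-ratio scaling, 10, 14 and 17 with library weights, 2, 3 and 3 over protein-coding genes only, 5, 4 and 8 after removal of the trends with GC content and length, and 0, 0 and 1 without the 2 libraries that stood apart. With only the groups compared in the fit it was 0 and 0. In MHCII-KO against Tyr-NrasQ61K it stayed at 0 under every alternative run. With 1 library left out at a time the number ranged from 0 to 1 in Tyr-NrasQ61K, was 0 in MHCII-KO and ranged from 0 to 2 with both groups together, where it was 0 without WT replicate 1, WT replicate 3 or MHCII-KO replicate 3. In Tyr-NrasQ61K it was 1 only without MHCII-KO replicate 1 or 2, so that leaving out any other library ended the call of Mfsd12. All genes called against WT, in that order, numbered 39, 24 and 66 of 16587 as reported. A pseudocount of 0.1 gave 24, 17 and 51. Quantile normalization gave 47, 36 and 173 and median-ratio scaling 69, 34 and 165. Without the 2 libraries that stood apart they were 35, 23 and 59, and with only the groups compared 40 and 25. No filter gave 26, 20 and 49 of 29980. Over protein-coding genes they were 105, 108 and 273 of 11902, and 243, 169 and 516 after removal of the trends.

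With library weights, 5 of the 17 members called with both groups together were lower. All genes called with these weights numbered 5076, 7407 and 7542 of 16587 in the comparisons against WT, where the reported fit had 39, 24 and 66. With the replicate block the members called were 4, 3 and 10, of which 3 in the last were lower (Asah1, Fuca1 and Ppt1), and all genes called numbered 894, 777 and 2675 of 16587. Correlations of same-numbered deviations ran from -0.04 to 0.33, and most were under 0.1. Those of differently numbered libraries ran from -0.27 to 0.16. Whether replicate numbers pair the libraries cannot be told from these values. The cause of these changes was not tested.

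The members' medians moved from their reported values by less than 0.359, the SD between libraries of a group, under every alternative run. That SD is larger than the reported medians of 0.20, 0.10 and 0.14 against WT, so a move within it can change their sign. The medians ranged from -0.04 to 0.37 in Tyr-NrasQ61K, from -0.11 to 0.365 in MHCII-KO and from -0.06 to 0.35 with both groups together, and those against WT were below 0 only without WT replicate 2. Median-ratio scaling moved the median of all genes from -0.12 to 0.01 in Tyr-NrasQ61K, from -0.22 to -0.01 in MHCII-KO and from -0.16 to 0.00465 with both groups together, and the members' medians to 0.35 in each of the 3 comparisons. The direction of 17 of 50 members with both groups together changed under at least 1 alternative, all with a difference of at most 0.42 in size. No member named in the text with a log2 difference from WT changed direction in that comparison. FPKM carry no read counts, so the precision of low genes such as Gla could not be given.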

Other observations

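A second entry with the symbol Glb1 (ENSMUSG00000079260) was at 3.25, 3.66 and 3.55 FPKM in WT, 4.72, 3.75 and 5.02 in Tyr-NrasQ61K and 4.65, 5.22 and 4.75 in MHCII-KO. The entry used as the member Glb1 (ENSMUSG00000045594), beta-galactosidase, was at 11.2, 6.56 and 9.66 FPKM in WT, 8.36, 3.22 and 8.12 in Tyr-NrasQ61K and 8.19, 4.38 and 9.38 in MHCII-KO. The lowest values of the second entry were in WT, and those of the member were in the 2 libraries that stood apart. Siglec1, a receptor of lymph node sinus macrophages, is listed at 0 in WT replicates 2 and 3 and was at 37.3 FPKM in WT replicate 1, while the 6 NrasQ61K libraries ranged from 8.63 to 18.6 FPKM.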
